A study of Mus musculus with 6 samples.

Results

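Esrrb encodes an orphan nuclear receptor, and all peaks at its locus were taken from 5 ChIP-seq (chromatin immunoprecipitation and sequencing) peak lists of mouse embryonic stem cells. A peak was counted when it overlapped chr12:87680000-87880000 in the mm9 build, a 200 kb window that holds the gene at about 87.70 to 87.86 Mb. This rule gave 70 of the 70533 peaks of the series, of which 15 were Tgif1, 19 Tgif2, 18 Hdac1, 13 Nanog and 5 Smad3 peaks. The peaks were chosen by position, but the window itself was selected on a known Smad3 peak of high fold enrichment in it, so the values are described here and not tested.

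The cells were J1 embryonic stem cells that contain BirA, a bacterial biotin ligase, grown in serum with leukemia inhibitory factor, and no group was treated or mutated. Tgif1 (Santa Cruz SC9084X), Hdac1 (Abcam ab7028) and Smad3 (Abcam ab28379) were precipitated with antibodies, whereas Nanog and Tgif2 were pulled down on streptavidin beads, a method that recovers biotin-tagged protein. Every factor was represented by a single library with its own list. The BirA mock was not analysed here, and no control value stands beside the peaks. No value below has a replicate check, and the fold enrichments and tag numbers are the authors' own per peak. Tags are the reads counted in a peak, and fold enrichment is the peak over its background. The depth of the libraries is unknown, so both measures were set only against the other peaks of the same list.

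Esrrb binds DNA as a monomer and sustains self-renewal of embryonic stem cells. The gene is a well-known direct target of the homeodomain factor Nanog, and forced expression of Esrrb can maintain these cells when Nanog is missing. Smad3 carries Activin and TGF-beta signals to chromatin, often next to factors already bound there. Tgif1 and its paralog Tgif2 are homeodomain corepressors that bind Smads and recruit histone deacetylases such as Hdac1.

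No list had a peak at the 5′ end of the gene. The first peak in the window began about 34.1 kb past the approximate gene start, and the last ended about 12.6 kb before the approximate gene end, so all 70 peaks lay inside the approximate gene span. RefSeq annotates 2 start sites for Esrrb. The 250 bases before each are shown because the first stands at the end of the gene where no peak was listed. The second could not be placed on mm9 here, so no peak is assigned to it. Both are on the plus strand and come from RefSeq in the GRCm38.p6 build, and their positions were not converted to mm9. Capitals mark TGTCA, the core letters bound by Tgif proteins, CAGAC, a Smad-binding element, and ATTA, a core of many homeodomain sites, on either strand.
Esrrb upstream start, GRCm38.p6 chr12:86360867-86361116: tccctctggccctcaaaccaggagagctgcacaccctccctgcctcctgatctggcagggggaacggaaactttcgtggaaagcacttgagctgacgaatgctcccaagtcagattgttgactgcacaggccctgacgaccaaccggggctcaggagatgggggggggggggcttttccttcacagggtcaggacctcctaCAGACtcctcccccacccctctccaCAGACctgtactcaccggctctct
Esrrb internal start, GRCm38.p6 chr12:86421394-86421643: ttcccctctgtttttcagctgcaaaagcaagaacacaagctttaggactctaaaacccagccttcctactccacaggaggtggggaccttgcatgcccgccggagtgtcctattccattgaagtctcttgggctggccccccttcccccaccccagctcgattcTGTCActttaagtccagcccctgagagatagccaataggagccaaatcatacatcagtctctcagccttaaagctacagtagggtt

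The upstream sequence held CAGAC at 2 places and neither of the other strings, and the internal one held TGTCA at 1 place and neither of the others. Such matches are common. Of the 32851 promoters in the RefSeq table, cut to the same length, 42.2% held CAGAC, 40.0% held TGTCA and 54.9% held ATTA. The strings do not overlap each other in these 2 sequences. No sequence is given for the peaks themselves, because an mm9 genome was not used here.

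Most peaks were packed towards the 3′ end of the gene. A stretch of 46.3 kb, chr12:87803789-87850048, held 63 of the 70 peaks, including 14 of 15 Tgif1, 17 of 19 Tgif2, 16 of 18 Hdac1, 11 of 13 Nanog and 5 of 5 Smad3 peaks. This stretch was delimited after the positions had been seen. The other 7 peaks formed 5 separate sites towards the 5′ end. The strongest of those by fold was at chr12:87736110-87736939, where Nanog reached 39.9-fold with 45 tags, Hdac1 20.6-fold with 37 tags and Tgif1 15.5-fold with 34 tags, without Tgif2 or Smad3. The remaining sites there had a single factor each. These were Hdac1 at chr12:87743713-87744343 (6.29-fold, 33 tags), Tgif2 at chr12:87762218-87763124 (21.7-fold, 45 tags) and at chr12:87781844-87782520 (19.99-fold, 33 tags), and Nanog at chr12:87795888-87796427 (14.8-fold, 46 tags).

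**Figure D1:**
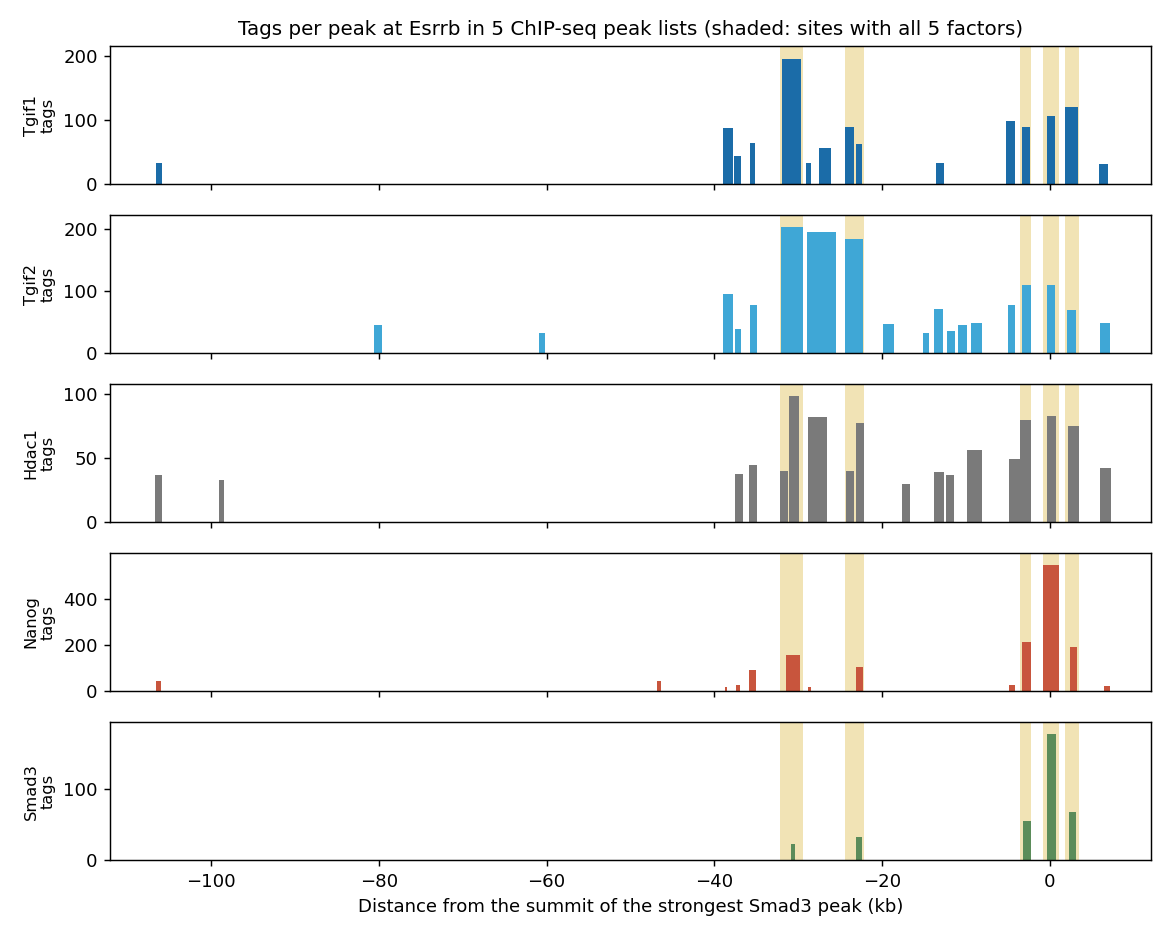
Tags per peak at Esrrb, one panel for each list with its own linear axis, against distance in kb from the summit of the strongest Smad3 peak; bars span the peak and shading marks the 5 sites with all 5 factors. Nanog and Smad3 tags peak at 0 kb with 545 and 176 tags, whereas the tallest Tgif1, Tgif2 and Hdac1 bars, with 196, 202 and 98 tags, stand near -30.8 kb, where the Tgif1 and Tgif2 peaks are wide; per kb of peak Tgif1 and Tgif2 are higher at 0 kb, with 114 and 115 tags per kb against 84.9 and 76.1.

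The locus stood apart from its surroundings. The nearest peak before the window was an Hdac1 peak at chr12:87582320-87583164 (9.92-fold, 32 tags), 153 kb before the first peak of the window, itself an Hdac1 peak with 20.6-fold and 37 tags. The nearest after it was a Tgif2 peak at chr12:87953090-87954406 (30.7-fold, 74 tags), 103 kb past the last peak, an Hdac1 peak with 6.23-fold and 42 tags. The edges of the window therefore did not cut through the cluster.

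Peaks of all 5 lists were dense here compared with the rest of the genome. The genome between the first and last peak of each chromosome was divided into 12866 tiles of 200 kb, with the window as one of them. Only 9 tiles, or 0.0700%, held 70 or more summits, against a median of 1 summit per tile. For single lists, 47 tiles held at least 15 Tgif1 summits, 16 held at least 19 Tgif2, 7 held at least 18 Hdac1, 61 held at least 13 Nanog and 7 held at least 5 Smad3 summits, the window included in each number. At least 1 Smad3 summit was present in 7.51% of tiles, against 40.8% for Tgif1, 43.9% for Tgif2, 41.6% for Hdac1 and 47.8% for Nanog. By summed tags the window was among the first 3 tiles for Smad3 with 354 tags, the first 7 for Nanog with 1500, the first 20 for Tgif2 with 1567, the first 22 for Hdac1 with 981 and the first 46 for Tgif1 with 1149. Fewer tiles matched the window in Nanog tags than in Nanog peaks, and for Hdac1 more did. It held 0.819% of all Smad3 tags in peaks and 0.183% of all Nanog tags, compared with 0.116% for Tgif2, 0.108% for Hdac1 and 0.105% for Tgif1. The Smad3 peak on which the window was selected held 176 of its 354 Smad3 tags. The Smad3 values of the window are therefore not independent of that choice.

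Merging overlapping peaks of the 5 lists gave 22 sites in the window. All 5 factors met at 5 of the 22, compared with 2.01% of the 33152 merged sites of the series. Such a site needs a Smad3 peak, and the window was selected on one, so this count is not independent of that choice. At least 4 factors met at 10 of the 22, compared with 12.8% of all. The 5 sites with 4 factors all had Tgif1, Tgif2, Hdac1 and Nanog and lacked Smad3. Across the series, 3384 of the 3562 sites with 4 factors had this same combination. A further 3 sites had 3 factors (21.2% of all sites) and 2 had Tgif2 with Hdac1 (3.82%). The other 7 had 1 factor, compared with 43.2% of all sites. Of these 4 were Tgif2 alone (10.3% of all sites), 2 Hdac1 alone (5.58%) and 1 Nanog alone (22.6%). No site had Tgif1 alone or Smad3 alone, and these were also few across the series, with 1493 and 78 of the 33152 sites. No other tile of 200 kb at the same spacing held 5 sites with all 5 factors, but with the tiles shifted by 100 kb 3 tiles elsewhere did, the highest with 6.

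The 5 sites with all factors are called A to E here, in order along the chromosome. Site A spanned chr12:87810562-87813343, site B chr12:87818304-87820543, site C chr12:87839249-87840516, site D chr12:87841996-87843876 and site E chr12:87844615-87846271. Their Smad3 summits lay 30.8, 22.7 and 2.81 kb before that of site D, and 2.67 kb after it. Sites C, D and E fell within 7.02 kb. Each Smad3 peak of the window belonged to one of these sites, so all 5 Smad3 peaks were overlapped by all 4 other factors. Across the whole Smad3 list, Nanog overlapped 90.3%, Hdac1 81.1%, Tgif1 67.5% and Tgif2 63.7% of peaks.

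Site D held the highest Smad3 and Nanog values of the locus. The Smad3 peak at chr12:87842429-87843450 had a fold enrichment of 35.7 and 176 tags, and ranked 2 by fold and 8 by tags among 1226 Smad3 peaks. Its Nanog partner, chr12:87841996-87843876, had 165-fold enrichment and 545 tags, and ranked 244 by fold and 17 by tags among 17272. Both therefore belonged to the leading 2% of their lists by either measure. Among the 665 sites of the series with all 5 factors, site D ranked 1 for Smad3 fold, 5 for Smad3 tags, 62 for Nanog fold and 13 for Nanog tags.

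The corepressor side of site D was ordinary by fold. The Tgif1 peak (chr12:87842435-87843371, 13.4-fold, 107 tags) ranked 8071 of 16400 by fold. The Tgif2 peak (chr12:87842446-87843392, 13.35-fold, 109 tags) ranked 10367 of 19129, and the Hdac1 peak (chr12:87842466-87843542, 11.6-fold, 83 tags) ranked 7043 of 16506. All were near the middle of their lists. By tags they stood higher, at rank 1876 for Tgif1, 2414 for Tgif2 and 1912 for Hdac1. Among the 665 sites with all factors, site D came at rank 449 for Tgif1 fold, 410 for Tgif2 fold and 426 for Hdac1 fold, below the middle for each. By tags it came at rank 201 for Tgif1 and 185 for Tgif2, above the middle, and 347 for Hdac1, just below it.

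The other sites had weaker Smad3 and Nanog peaks. Site E had the next highest Smad3 peak (chr12:87844985-87845911, 15.4-fold, 68 tags), at rank 122 by fold and 91 by tags, with Nanog at 50.0-fold and 190 tags (chr12:87845107-87846001). Site C had Smad3 at 7.62-fold with 55 tags (chr12:87839594-87840484), rank 1014 by fold and 150 by tags, and Nanog at 58.7-fold with 213 tags (chr12:87839402-87840456). The Smad3 peak of site C was thus near the bottom of its list by fold and in its leading 13% by tags. At site B Smad3 had 11.98-fold enrichment and 32 tags (chr12:87819689-87820338), rank 305 by fold and 439 by tags. Nanog reached 95.5-fold there with 103 tags (chr12:87819591-87820465), its second highest fold at the locus. Site A had the lowest Smad3 peak of the locus by either measure (chr12:87811861-87812336, 7.44-fold, 23 tags), at rank 1050 by fold and 720 by tags, with Nanog at 35.0-fold and 155 tags (chr12:87811289-87812963).

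By tag number, though not by tags per kb of peak, the highest Tgif1, Tgif2 and Hdac1 peaks lay at site A, about 31 kb away from the highest Nanog and Smad3 peaks at site D. The Tgif1 peak there (chr12:87810837-87813145) had 196 tags and ranked 255 of 16400 by tags, with 18.7-fold enrichment (rank 4466). The Tgif2 peak (chr12:87810689-87813343) had 202 tags and ranked 325 of 19129, with 14.5-fold enrichment (rank 9178). Hdac1 was split into 2 peaks, of which chr12:87811651-87812879 had 98 tags, 12.9-fold enrichment and rank 1066 by tags, and chr12:87810562-87811571 had 40 tags and 9.59-fold. The Tgif1 and Tgif2 peaks were also wide. The Tgif1 peak covered 2308 bp and the Tgif2 peak 2654 bp, compared with medians of 933 and 943 bp in their lists. Per kb of peak, Tgif1 had 114 tags at site D and 84.9 at site A, and its highest value was 122 at chr12:87807059-87807592. Tgif2 had its highest value at site D, with 115 tags per kb, against 76.1 at site A. Hdac1 had 77.1 tags per kb at site D and 79.8 at site A, with its highest value of 81.9 at site B. Nanog and Smad3 were highest at site D by this measure too, with 290 and 172 tags per kb. Per kb, only the highest Tgif2 peak thus joined those of Nanog and Smad3 at site D. The highest Tgif1 and Hdac1 peaks lay at other sites, with 122 and 81.9 tags per kb against 114 and 77.1 at site D.

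The remaining sites with all factors also had Tgif1, Tgif2 and Hdac1 at different strengths. Site B was split into 2 Tgif1 peaks, chr12:87818304-87819402 (14.9-fold, 90 tags) and chr12:87819613-87820312 (19.4-fold, 63 tags), and 2 Hdac1 peaks, chr12:87818423-87819437 (5.87-fold, 40 tags) and chr12:87819603-87820543 (21.6-fold, 77 tags). A single Tgif2 peak, chr12:87818332-87820483 (18.4-fold, 184 tags), covered both parts, whereas Nanog and Smad3 were present only at the second. Site C had Tgif1 at 8.65-fold with 90 tags (chr12:87839457-87840383), Tgif2 at 10.7-fold with 109 tags (chr12:87839419-87840516) and Hdac1 at 6.63-fold with 80 tags (chr12:87839249-87840461). As for Smad3 there, their fold was low for the list, at ranks 13670, 13647 and 14928, and their tags were not, at ranks 2955, 2414 and 2137. Site E had Tgif1 at 14.2-fold with 120 tags (chr12:87844615-87846173), Tgif2 at 14.98-fold with 70 tags (chr12:87844850-87845848) and Hdac1 at 10.7-fold with 75 tags (chr12:87844930-87846271).

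The 5 sites with 4 factors and no Smad3 had weaker Nanog peaks, with 1 exception. That exception was chr12:87806858-87807834, where Nanog reached 42.5-fold with 90 tags, Tgif2 28.1-fold with 77 tags, Tgif1 21.2-fold with 65 tags (chr12:87807059-87807592) and Hdac1 14.4-fold with 45 tags. Its Nanog fold was above the 35.0-fold of site A, which had Smad3. At the other 4 sites Nanog had 13.1-fold to 16.3-fold enrichment and 17 to 27 tags. The site at chr12:87837498-87839149 had Tgif1 at 22.8-fold with 99 tags, Tgif2 at 19.6-fold with 78 tags and Hdac1 at 9.34-fold with 49 tags, beside Nanog at 16.3-fold with 27 tags. The site at chr12:87805138-87806128 had Tgif1 at 15.0-fold with 44 tags, Tgif2 at 11.7-fold with 39 tags, Hdac1 at 13.2-fold with 38 tags and Nanog at 13.1-fold with 26 tags. The broad site at chr12:87813691-87817296 had Tgif1 at 10.01-fold with 33 tags and at 6.97-fold with 56 tags, Tgif2 at 11.5-fold with 195 tags, Hdac1 at 10.6-fold with 82 tags and Nanog at 14.8-fold with 17 tags. At the last site, chr12:87848674-87850048, Nanog had 13.9-fold with 24 tags, Tgif1 9.94-fold with 32 tags, Tgif2 9.07-fold with 49 tags and Hdac1 6.23-fold with 42 tags. Nanog was therefore low at these 4 sites while Tgif1 was, at chr12:87837498-87838633, at its highest fold of the locus. Just 5′ of them, chr12:87803789-87805019 had Tgif1 at 21.3-fold with 87 tags and Tgif2 at 21.6-fold with 96 tags, beside a small Nanog peak (11.4-fold, 19 tags) and no Hdac1.

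By fold, the highest peak of each corepressor list lay at a different site. For Tgif1 it was chr12:87837498-87838633 (22.8-fold, 99 tags, rank 2845 by fold), for Tgif2 chr12:87806996-87807821 (28.1-fold, 77 tags, rank 2503) and for Hdac1 chr12:87819603-87820543 in site B (21.6-fold, 77 tags, rank 1209). The Tgif1 and Tgif2 peaks belonged to sites with Tgif1, Tgif2, Hdac1 and Nanog but no Smad3. None of these lists had a dominant peak by fold. The highest fold exceeded the next by 1.07 times for Tgif1, 1.29 times for Tgif2 and 1.05 times for Hdac1. It exceeded the next by 1.73 times for Nanog and 2.32 times for Smad3, whose highest peak is the one on which the window was selected. By tags the ratio was 1.63 for Tgif1, 1.04 for Tgif2 and 1.18 for Hdac1, against 2.56 for Nanog and 2.59 for Smad3. By tags per kb of peak it was 1.07, 1.16 and 1.03, against 1.36 and 2.35.

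**Figure D2:**
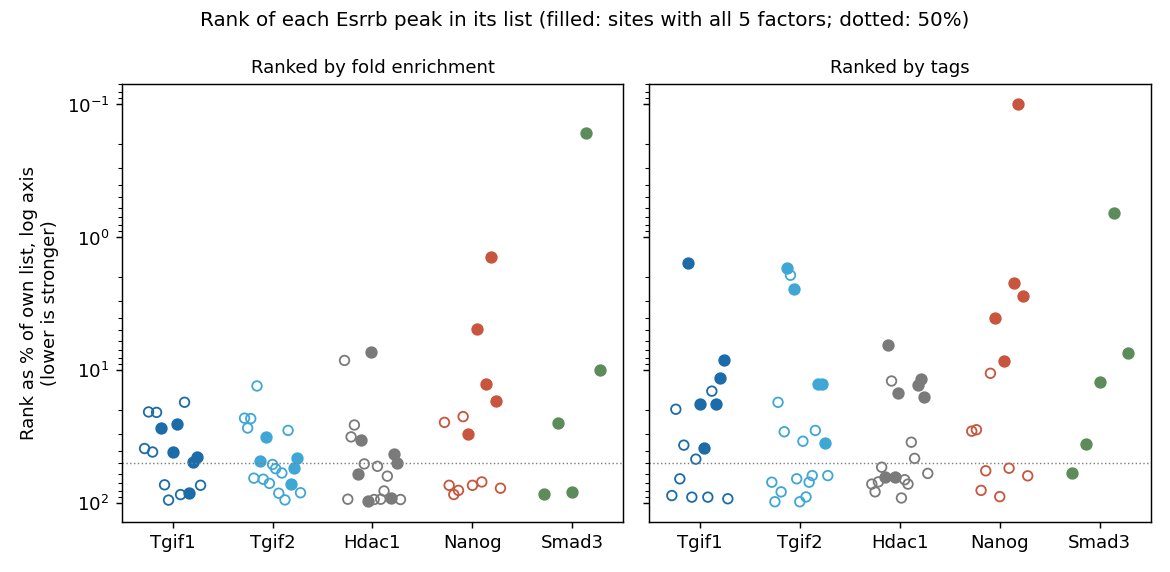
Rank of each of the 70 Esrrb peaks as a percentage of its own list, by fold enrichment (left) and by tags (right), on an inverted log axis so that stronger peaks are higher; filled points belong to the 5 sites with all factors and the dotted line is 50%. The uppermost Smad3 and Nanog points are site D, at ranks 2 and 244 by fold, and no Tgif1 or Tgif2 peak reaches the leading 10% by fold.

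As a group, the Tgif1, Tgif2 and Hdac1 peaks of Esrrb were of average fold. The median was 14.9-fold at Esrrb for Tgif1, against 13.3-fold over its list, 13.35-fold for Tgif2 against 14.1-fold, and 9.93-fold for Hdac1 against 10.65-fold. Peaks at or above the list median numbered 10 of 15 for Tgif1 (50.2% of the list), 8 of 19 for Tgif2 (50%) and 7 of 18 for Hdac1 (50.2%). Nanog had a median of 35.0-fold at Esrrb against 23.7-fold over its list, with 7 of 13 peaks at or above the list median (50%). Smad3 had 11.98-fold against 9.57-fold, with 3 of 5 (50%). By tags, 8 of 13 Nanog peaks (50%), 4 of 5 Smad3 peaks (52.2%), 10 of 15 Tgif1 (50.6%), 10 of 19 Tgif2 (51.1%) and 8 of 18 Hdac1 peaks (51.3%) reached the median of their list. These shares rest on 5 to 19 peaks per list, and most were not far from those of the whole lists. Furthest from them were 4 of 5 Smad3 peaks by tags and 10 of 15 Tgif1 peaks by either measure. Peaks in the leading 10% of a list by tags numbered 5 for Nanog, 3 for Tgif2, 2 for Tgif1, 2 for Smad3 and 1 for Hdac1.

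The lists differed in how their tags were spread over the locus. Site D took 49.7% of the Smad3 tags at Esrrb (95% Wilson interval 44.5 to 54.9) and 36.3% of the Nanog tags (33.9 to 38.8). It took 9.31% of the Tgif1 tags (7.77 to 11.1), 8.46% of the Hdac1 tags (6.88 to 10.4) and 6.96% of the Tgif2 tags (5.80 to 8.32). The window was selected on the Smad3 peak of site D, so the Smad3 share of that site is not independent of the choice. Sites C, D and E together held 84.5% of the Smad3 tags and 63.2% of the Nanog tags, compared with 27.6% for Tgif1, 24.3% for Hdac1 and 18.4% for Tgif2. At site A the shares were higher for the other 3 lists, with 17.1% of the Tgif1 tags (15.0 to 19.3), 14.1% for Hdac1 (12.03 to 16.4) and 12.9% for Tgif2 (11.3 to 14.6), against 10.3% for Nanog (8.89 to 11.976) and 6.50% for Smad3 (4.37 to 9.56). The intervals of Nanog and Tgif2 overlapped at site A. All intervals cover counting error within 1 library only. Each share is over the peaks of its own list in the window, 5 for Smad3, 13 for Nanog, 15 for Tgif1, 18 for Hdac1 and 19 for Tgif2. A list with fewer peaks has its tags in fewer places, and all Smad3 peaks lay in sites A to E. The part of peak number in these shares was not tested.

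**Figure D3:**
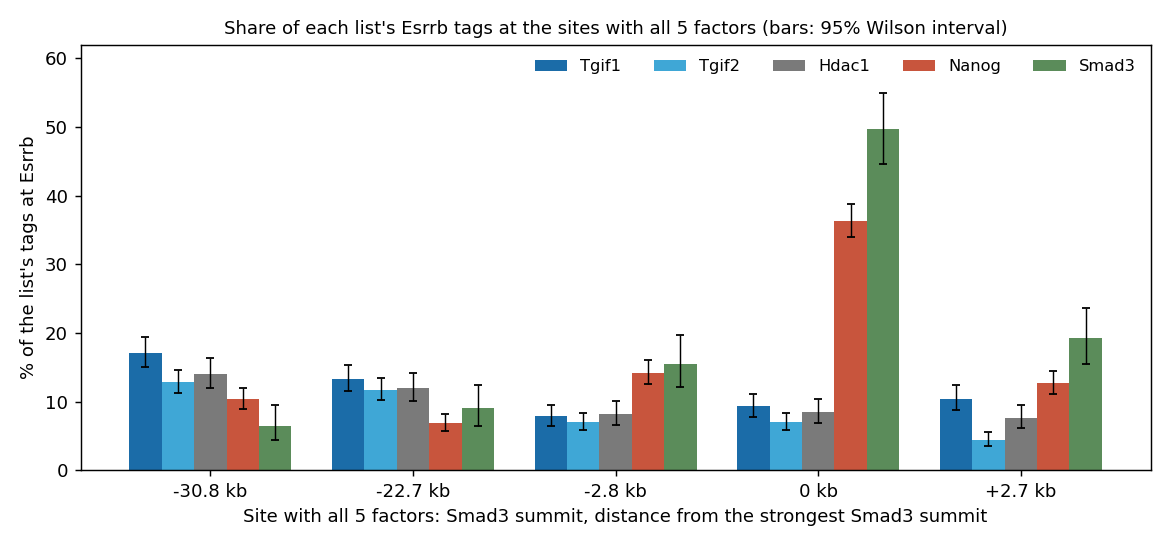
Percentage of each list's tags at Esrrb that fell in each of the 5 sites with all factors, in order along the chromosome (sites A to E); bars give the share and lines the 95% Wilson interval, which covers counting error only. At 0 kb (site D) Smad3 and Nanog reach 49.7% and 36.3%, whereas Tgif1, Tgif2 and Hdac1 stay below 10%. The lists have 5 (Smad3) to 19 (Tgif2) peaks in the window, and the window was selected on the Smad3 peak of site D.

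The longest stretch of the cluster without a Nanog peak had corepressor peaks and no Smad3. It was picked for its lack of Nanog. Across the series, Nanog overlapped only 36.7% of Tgif1, 32.2% of Tgif2 and 45.6% of Hdac1 peaks. Over the 17.5 kb between the Nanog peaks of site B and of chr12:87837921-87838609, 6 Tgif2 peaks, 4 Hdac1 peaks and 1 Tgif1 peak had their summits. They held 17.9% of the Tgif2 tags at Esrrb, 16.5% of the Hdac1 tags and 2.87% of the Tgif1 tags. Their enrichment was 7.32-fold to 13.95-fold for Tgif2, 6.23-fold to 10.3-fold for Hdac1 and 8.13-fold for Tgif1, below the list median in each case. The Tgif1 peak, chr12:87829132-87830081, had 33 tags and was overlapped by both Tgif2 and Hdac1. The widest Tgif2 peak of the locus, chr12:87813822-87817296, lay before this stretch and covered 3474 bp, rank 44 of 19129 by width. It overlapped 2 Tgif1 peaks, an Hdac1 peak and a Nanog peak with 17 tags.

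The 2 paralogs mostly coincided at Esrrb, as they did over their whole lists. Of the 15 Tgif1 peaks 14 were overlapped by Tgif2 (79.2% of all Tgif1 peaks), and of the 19 Tgif2 peaks 12 were overlapped by Tgif1 (68% of all). Peaks without any partner numbered 0 of 15 for Tgif1 (9.1% of all) and 4 of 19 for Tgif2 (17.9% of all), where the Tgif2 share is near that of its whole list. They numbered 2 of 18 for Hdac1 (11.2%), 1 of 13 for Nanog (43.3%) and 0 of 5 for Smad3 (6.36%). Hdac1 overlapped 14 of 15 Tgif1 peaks (66.1% of all) and 14 of 19 Tgif2 peaks (59.9%). Tgif1 overlapped 14 of 18 Hdac1 peaks (64.6%) and Tgif2 overlapped 15 of 18 (68.4%).

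Overlap with Nanog and Smad3 was further from the shares of the whole lists. Nanog overlapped 12 of 15 Tgif1 peaks (36.7% of all), 11 of 19 Tgif2 peaks (32.2%) and 12 of 18 Hdac1 peaks (45.6%). Of the 13 Nanog peaks, 12 were overlapped by Tgif1 (35.8% of all), 11 by Tgif2 (36.7%), 11 by Hdac1 (45.9%) and 5 by Smad3 (6.43%). Smad3 overlapped 5 peaks in each of the other lists, out of 15 for Tgif1 (5.04% of all), 19 for Tgif2 (4.08%) and 18 for Hdac1 (5.9%). The window was selected on a Smad3 peak, and only 7.51% of 200 kb tiles held any Smad3 summit. The overlaps with Smad3 are therefore not independent of that choice. Peaks of 1 locus lie next to each other and are not independent, and no test was made of these shares. Tgif1 peaks covered 15904 bp, Tgif2 peaks 24209 bp and Hdac1 peaks 20728 bp of the window, mostly within the same 46.3 kb. The part of this density in the overlaps was not tested. With summits within 200 bp, 11 Nanog peaks were shared with Tgif1, 8 with Tgif2, 10 with Hdac1 and 5 with Smad3. The shares over the whole list under that rule are not given here.

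At the sites with all factors most summits, the positions of highest signal, were close together. Over the 50 pairs of factors at sites A to E the median distance between nearest summits was 27 bp, and 38 of the 50 pairs were within 50 bp. At site C all 5 summits lay within 29 bp, and at site B within 38 bp. At site E they lay within 66 bp. Sites A and D had one distant summit each. The Tgif2 summit of site A was 244 bp from the Smad3 summit, and the Tgif1 summit of site D was 215 bp from it. At site D the Nanog summit was 19 bp and the Tgif2 summit 3 bp from that of Smad3. Smad3 and Nanog summits were between 9 and 76 bp apart at the 5 sites, and Smad3 and Hdac1 summits between 11 and 66 bp. The sites with 4 factors were looser, with a median of 73.5 bp over 30 pairs, of which 12 were within 50 bp and 10 beyond 200 bp. The distant pairs were mostly at 2 sites. At chr12:87813691-87817296 the Tgif2 summit was 650 to 891 bp from the others and the Hdac1 and Nanog summits lay 1552 bp apart. At chr12:87848674-87850048 all pairs but Hdac1 with Nanog were 279 to 745 bp apart.

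**Figure D4:**
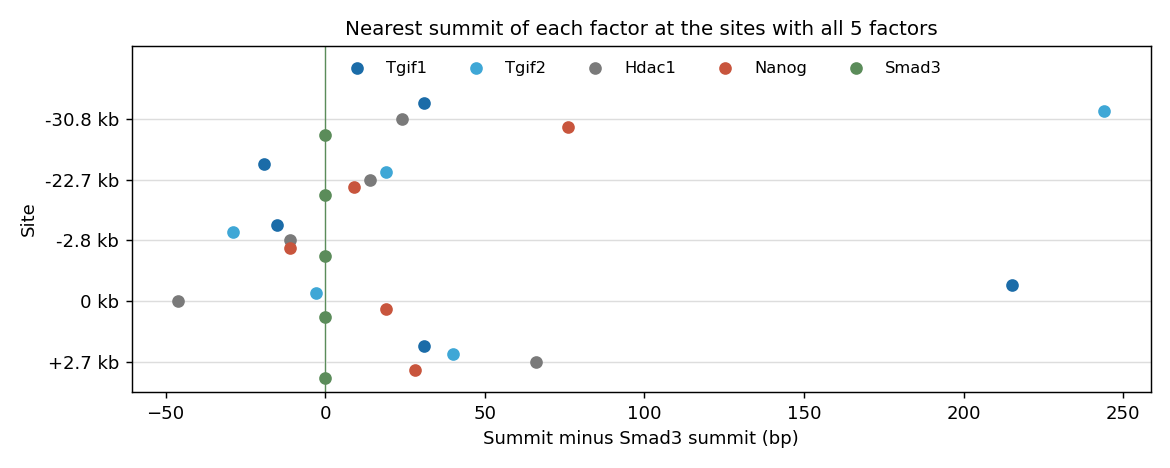
Position of the nearest summit of each factor relative to the Smad3 summit (0 bp) at the 5 sites with all factors, given by their distance from site D. At sites B and C (-22.7 and -2.8 kb) all points fall within 38 and 29 bp, while Tgif2 at site A lies 244 bp and Tgif1 at site D 215 bp from Smad3.

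Across the 10 sites with 4 or 5 factors, tag numbers of Hdac1 ran more closely with those of Tgif1 and Tgif2 than with those of Nanog. Spearman's rho over the sites was 0.92 between Tgif2 and Hdac1, 0.84 between Tgif1 and Hdac1 and 0.65 between Tgif1 and Tgif2 (Pearson's r 0.87, 0.93 and 0.75). With Nanog it was 0.62 for Tgif1, 0.49 for Hdac1 and 0.23 for Tgif2 (Pearson's r 0.28, 0.31 and 0.07). By rho, Tgif1 thus ran about as closely with Nanog as with Tgif2. Leaving out site D gave rho of 0.63, 0.42 and 0.22 with Nanog and Pearson's r of 0.52, 0.51 and 0.18. Without site D, rho was 0.93 between Tgif2 and Hdac1, 0.83 between Tgif1 and Hdac1 and 0.68 between Tgif1 and Tgif2 (Pearson's r 0.88, 0.93 and 0.76). The 10 sites lie in 1 gene, each list comes from 1 library, and tags of 3 lists ran with the width of the site. Spearman's rho between tags and site width was 0.81 for Hdac1, 0.77 for Tgif2, 0.64 for Tgif1 and 0.03 for Nanog. The part of width in these values was not tested.

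The 3 tiles most like the Esrrb window in their summed tags were on chromosomes 13 and 11. Likeness was measured as the Euclidean distance over the 5 lists of log2(1 + tags per 1000000 tags in all peaks of a list), among the 809 other tiles with at least 1 summit of every list. The median distance was 5.87. The nearest tile, chr13:66680000-66880000, had a distance of 0.40 and 303 Smad3, 1323 Nanog, 961 Tgif1, 1551 Tgif2 and 910 Hdac1 tags, but only 1 site with all factors. It was followed by chr13:44680000-44880000 (distance 1.05, 275 Smad3 and 1507 Nanog tags) and chr11:117680000-117880000 (1.13, 291 Smad3 and 1271 Nanog tags), with 4 sites with all factors each. No gene is named for these tiles, because mm9 annotation was not used here.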

How the data were processed

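Per the submitters' processing notes, reads were aligned to mm9 with BWA 0.5.9-r16 and peaks were called with MACS. The control, the threshold and the MACS version are not given in the sources used here. The deposited lists have no header. Per peak the authors deposited a fold enrichment, a ratio over background made by their peak caller, and a whole count of tags, both identified from the values, beside interval and summit. Whether starts count from 0 or 1 is not stated, so mm9 coordinates carry an uncertainty of 1 bp.

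Ranks by fold and by tags were taken within each whole list, ties sharing the best rank. An overlap of 1 bp or more joined peaks into a site and counted as shared. Tiles were counted by summit. Shares have 95% Wilson intervals, which cover counting error only. Background shares beside a count are over all peaks of the list.

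The window, the comparisons and the alternatives were chosen with earlier results of these data known. Peaks named in full are the Smad3 peaks, those of sites with 4 or 5 factors, and the highest by fold and by tags in each list. Other peaks were named after their values were seen. The mock library was not analysed here. With 1 library per factor no test between samples was made. Counting of overlaps was tested on simulated data and checked against bedtools 2.31.1, where 0 of 20 differed. Python 3.11.15, NumPy 2.4.6, pandas 2.3.3, SciPy 1.17.1 and matplotlib 3.10.9 were used.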

Additional observations from a re-analysis of the deposited data

How the results depend on the processing

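Of the alternative values, 55 stayed within 1.5 times of the main count, inside the interval of the main share or at the same site, and 28 did not. No paired analysis was possible because each factor had 1 library. The number of peaks at Esrrb was the same when only the approximate gene span or only summits were counted. Keeping only the stronger peaks, those not below their list's median fold, left 10 Tgif1, 8 Tgif2, 7 Hdac1, 7 Nanog and 3 Smad3 peaks. They formed 12 sites, of which 2 had all 5 factors and 5 had at least 4. Across the series the same filter left 20523 sites, of which 178, or 0.867%, had all 5 factors. The share with at least 4 under this filter is not given here. Joining peaks by 50% overlap, by summits within 200 bp or over gaps up to 500 bp kept the counts of sites within 1.5 times.

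Ranks at site D moved with the measure. The Smad3 peak, at 2 by fold, was at 8 by tags and 10 by tags per kb of peak, and the Nanog peak, at 244 by fold, was at 17 and 119. The Tgif1 peak was at 1876 by tags and 520 by tags per kb, the Tgif2 peak at 2414 and 705, and the Hdac1 peak at 1912 and 459. The middling rank of these 3 peaks therefore holds for fold only.

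Shifting the tiles by 100 kb gave 0.0311% of tiles with at least 70 summits and 0.0155% with at least 18 Hdac1 summits. Over tiles with at least 1 peak, which are fewer, the shares were 0.621% for Tgif1, 0.211% for Tgif2 and 0.806% for Nanog summits, and 0.608%, 0.264% and 0.291% for Tgif1, Tgif2 and Hdac1 tags. By tags per kb, chosen after the data were seen, the highest Tgif1, Tgif2 and Hdac1 peaks left site A. Leaving out the Tgif2 list when peaks were joined, also chosen then, left the other 4 factors joined at site D.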
